A study of Homo sapiens with 12 samples.

Results

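Of the 10253 human protein-coding genes that carried H3K4me3 within 1 kb of an annotated end in KBM-7 cells, 2234 had no H3K79me2 over their span or the 1 kb beside it, and 8019 had some. The 10253 genes were 51.3% of the 19974 protein-coding genes of chromosomes 1 to 22 and X. The genes were chosen from the deposited intervals of both marks alone. Intervals of a mark that overlapped or touched were joined into regions, a gene entered when a H3K4me3 region reached into the 1 kb on either side of its lower or its upper annotated end, and it was put on the side with H3K79me2 when at least 1 bp of that mark lay between 1 kb before and 1 kb after its span. The genes without H3K79me2 were 21.8% of those with H3K4me3 (Wilson 95% interval 21.0 to 22.6%, which covers counting error only). When only the wider of the H3K4me3 regions were used, those at or above their median width, 818 of 7656 genes, or 10.7%, had no H3K79me2. Of the 9721 genes with no H3K4me3 at an end, 784, or 8.07%, had H3K79me2 by the same rule. They were compared with the genes that had H3K79me2 by the width of the H3K4me3 region, by gene length, by the other marks and by what the genes encode.

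KBM-7 is a near-haploid human line from a chronic myeloid leukaemia that carries the BCR-ABL1 fusion. The chromatin came from cells of this 1 line, with no treatment or time point in the labels, fixed with formaldehyde, and was profiled by ChIP-seq for 9 histone marks by the labels, with 3 input libraries that enter none of the comparisons. H3K4me3 and H3K79me2 came from 1 library each, as did every other mark, so both sides of the split are genes of the same cells, not groups of samples. No replicate error exists for any value. Genes are not replicates, and neighbouring genes can share a region: the 2234 genes rested on 2029 different widest H3K4me3 regions and the 8019 genes on 6778. Therefore no p-value is given, and a share is given with its Wilson 95% interval. The deposited intervals hold positions only, so sequencing depth is unknown for every library, and a gene without an interval may carry the mark below the level at which it was called. The H3K36me3 and H4K16ac intervals were identical and cannot be told apart. They are named H3K36me3/H4K16ac here.

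H3K4me3 is placed around the starts of genes by SET1 and MLL methyltransferases, mostly over CpG-rich promoters, whether the gene is transcribed at a high rate or held ready. H3K79me2 is placed by DOT1L over the beginning of gene bodies that RNA polymerase II is elongating through, and DOT1L is recruited by fusion proteins in leukaemias with MLL rearrangements. H3K36me3 follows elongation towards the end of the gene, H3K9ac and H3K27ac mark active promoters and enhancers, and H3K27me3 is the mark of Polycomb repression. Promoters that carry H3K4me3 and H3K27me3 together are called bivalent.

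To show what such promoters look like, 7 are printed, with 250 bases before and 50 bases after the start, from the RefSeq table for GRCh38.p14. The 4 without H3K79me2 stand for groups described below. TLN2 had the widest H3K4me3 of the genes without H3K79me2, EGR1 is an immediate early gene, H2AC21 is a histone gene, and NELFE encodes a subunit of the negative elongation factor. ETV6, ANKRD11 and SMYD3 were among the genes with the most H3K79me2. Capitals mark matches, on either strand, to the GC box GGGCGG, the TATA box TATAAA, the CCAAT box, the ETS core CCGGAAG, the NRF1 letters GCATGCG, the CRE letters TGACGTCA, the E box CACGTG or the YY1 letters AAGATGGCG. The promoters lie at chr15:62390300-62390599 on the plus strand (TLN2), chr5:138465229-138465528 on the plus strand (EGR1), chr1:149887916-149888215 on the minus strand (H2AC21), chr6:31958922-31959221 on the minus strand (NELFE), chr12:11649424-11649723 on the plus strand (ETV6), chr16:89490512-89490811 on the minus strand (ANKRD11) and chr1:246507230-246507529 on the minus strand (SMYD3).
TLN2: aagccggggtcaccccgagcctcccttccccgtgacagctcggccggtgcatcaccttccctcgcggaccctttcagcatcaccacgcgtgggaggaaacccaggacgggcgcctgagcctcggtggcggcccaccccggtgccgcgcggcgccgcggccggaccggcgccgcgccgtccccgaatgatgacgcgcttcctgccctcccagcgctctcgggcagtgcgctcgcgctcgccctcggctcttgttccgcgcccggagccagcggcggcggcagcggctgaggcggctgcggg
EGR1: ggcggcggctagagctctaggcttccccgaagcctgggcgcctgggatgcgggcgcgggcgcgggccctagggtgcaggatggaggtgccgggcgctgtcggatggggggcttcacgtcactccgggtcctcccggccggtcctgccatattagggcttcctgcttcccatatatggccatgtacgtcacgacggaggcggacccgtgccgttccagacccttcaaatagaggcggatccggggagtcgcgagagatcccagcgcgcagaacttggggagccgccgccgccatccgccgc
H2AC21: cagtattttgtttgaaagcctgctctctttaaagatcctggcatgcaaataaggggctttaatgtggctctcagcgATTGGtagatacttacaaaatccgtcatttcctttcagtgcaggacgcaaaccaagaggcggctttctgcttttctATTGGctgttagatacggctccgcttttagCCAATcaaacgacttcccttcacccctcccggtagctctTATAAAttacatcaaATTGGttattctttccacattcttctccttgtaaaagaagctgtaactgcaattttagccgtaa
NELFE: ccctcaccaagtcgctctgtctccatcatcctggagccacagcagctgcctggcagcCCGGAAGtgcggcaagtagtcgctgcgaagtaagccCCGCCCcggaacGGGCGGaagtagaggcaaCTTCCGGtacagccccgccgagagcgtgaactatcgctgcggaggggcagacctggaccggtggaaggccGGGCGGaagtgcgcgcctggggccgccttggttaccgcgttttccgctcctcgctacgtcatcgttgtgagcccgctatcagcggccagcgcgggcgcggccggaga
ETV6: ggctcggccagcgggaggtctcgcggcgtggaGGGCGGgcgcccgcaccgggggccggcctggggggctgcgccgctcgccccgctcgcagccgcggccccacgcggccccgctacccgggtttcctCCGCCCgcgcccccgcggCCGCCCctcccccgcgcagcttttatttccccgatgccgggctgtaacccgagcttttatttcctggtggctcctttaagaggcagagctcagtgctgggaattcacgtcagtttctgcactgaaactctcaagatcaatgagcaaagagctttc
ANKRD11: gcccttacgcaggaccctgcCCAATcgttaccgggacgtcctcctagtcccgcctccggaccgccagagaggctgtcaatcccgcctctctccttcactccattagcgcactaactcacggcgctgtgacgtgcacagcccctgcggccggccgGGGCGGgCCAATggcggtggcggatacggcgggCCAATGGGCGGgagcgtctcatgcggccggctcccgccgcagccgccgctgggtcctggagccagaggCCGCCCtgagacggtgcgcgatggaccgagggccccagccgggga
SMYD3: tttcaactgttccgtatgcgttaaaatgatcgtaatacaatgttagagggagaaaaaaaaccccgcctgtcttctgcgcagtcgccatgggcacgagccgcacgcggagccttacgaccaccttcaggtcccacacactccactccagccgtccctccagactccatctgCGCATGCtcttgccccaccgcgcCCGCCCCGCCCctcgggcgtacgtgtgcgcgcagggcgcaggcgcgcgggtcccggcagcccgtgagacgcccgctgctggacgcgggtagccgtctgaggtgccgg

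Both sides held CpG-rich promoters. The TLN2 promoter had 45 CpG in its 300 bases and a G+C content of 76.0%, EGR1 had 33 CpG and 69.3%, and NELFE 34 CpG and 67.7%, against 33 CpG and 69.0% for ETV6, 34 CpG and 71.7% for ANKRD11, and 34 CpG and 65.0% for SMYD3. H2AC21 stood apart with 9 CpG and 42.0%, and it held TATA and CCAAT matches like many histone promoters.

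Genes without H3K79me2 had narrow H3K4me3. The widest H3K4me3 region at their ends had a median of 750 bp (quartiles 600 and 900 bp, n = 2234), against 1350 bp (quartiles 900 and 1800 bp, n = 8019) in genes with H3K79me2. The medians differed by -600 bp, without minus with, which is 4 steps of the 150 bp grid on which the intervals lie. The difference was -300 bp when only the wider of the H3K4me3 regions were used. The distributions overlapped, since both began at 300 bp, but the upper ends did not: the widest region without H3K79me2 was 2700 bp long, whereas 471 genes with H3K79me2 had a wider one, up to 9600 bp at EGFL7, which encodes a secreted endothelial factor.

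The share of genes without H3K79me2 was smaller the wider the region. It was 72.0% (66.6 to 76.8%) of the 293 genes whose region was 300 bp long, 70.0% (65.6 to 74.1%) at 450 bp, with overlapping intervals, then 57.9% (54.6 to 61.1%) at 600 bp and 23.5% (21.2 to 26.0%) at 900 bp. Of the 1471 genes with a region over 2000 bp, 20 lacked H3K79me2, or 1.36% (0.882 to 2.09%). Among genes that had both marks, the H3K79me2 over the span plus 1 kb grew with H3K4me3 width as well. Its median was 1200 bp where H3K4me3 was 300 bp wide and 7800 bp where it exceeded 2000 bp. Across these 8019 genes Spearman's rho between both lengths was 0.390, a description over genes of the same libraries.

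**Figure D1:**
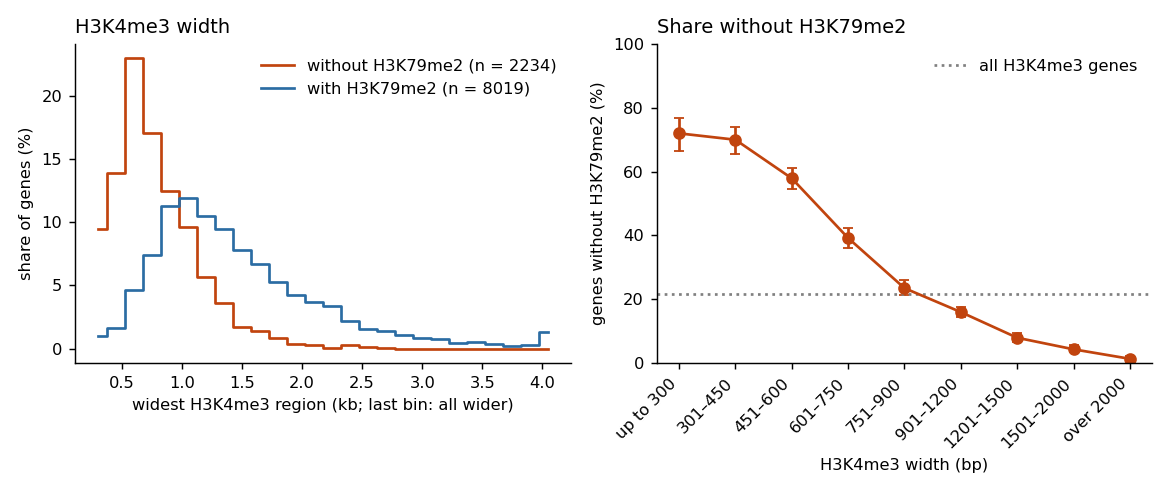
Left, the share of genes (%) by the width of their widest H3K4me3 region (kb, bins of 150 bp) for 2234 genes without and 8019 genes with H3K79me2. Right, the share of genes without H3K79me2 (%) by class of H3K4me3 width (bp), with Wilson 95% intervals; it is 72.0% at 300 bp and 1.36% over 2000 bp, and the dotted line is the 21.8% over all H3K4me3 genes.

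The 20 wide exceptions differed in H3K27me3, which covered most of the span at TLN2, 20.2% at ZHX2, and little or nothing at others. TLN2, which encodes a talin that links integrins to actin, had 2700 bp of H3K4me3 at its start. It lies in the part of chromosome 15 of which KBM-7 is known to carry an extra copy. It had 340131 bp of H3K27me3, or 74.7% of its 454082 bp span, no H3K36me3/H4K16ac, and the nearest H3K79me2 308970 bp away. ZDHHC14, a palmitoyltransferase gene, shared its region of 2550 bp with the small gene LOC124901446 on the opposite strand. It had 24750 bp of H3K4me1, no H3K36me3/H4K16ac and 2.41% of its span under H3K27me3. L3MBTL3, a reader of methylated lysines, had a region of 2400 bp, no H3K27me3 and 30.5% of its span under H3K36me3/H4K16ac. These genes therefore did not share a body mark.

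LMNA, the gene of the nuclear lamins A and C, had 2400 bp of H3K4me3 and H3K4me1 over 28.2% of its span, with neither body mark. Its nearest H3K79me2 began 1123 bp outside, at the edge of the rule. SEMA4C, a semaphorin gene, had a region of 2400 bp with H3K36me3/H4K16ac over 45% of its span. Of the 20 genes 5 lay on chromosome 8, among them MYBL1, a MYB family factor gene, with 2550 bp of H3K4me3 and 71.5% of its span under H3K36me3/H4K16ac.

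Gene length differed less than width. The median span was 25896 bp (quartiles 9735 and 71451 bp) without H3K79me2 and 30978 bp (quartiles 13034 and 69910 bp) with it, a ratio of 0.836. This ratio turned to 1.16 when H3K79me2 was looked for only within 1 kb of the ends, where a long gene offers no more sequence than a short one. The share without H3K79me2 was 34.3% (28.3 to 40.8%) of genes up to 2 kb, 17.8% (16.1 to 19.7%) of those between 50 and 100 kb, and 24.5% (22.6 to 26.6%) of those over 100 kb. It was therefore high at both ends of the length range.

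The width gap was present at each length. Within the 7 classes of gene length, the median H3K4me3 width lay between 600 and 750 bp without H3K79me2, against 1200 to 1350 bp with it. At a given width, length still mattered. Among genes with H3K4me3 up to 600 bp, 79.2% (65.7 to 88.3%) of those up to 2 kb lacked H3K79me2, 56.2% (49.9 to 62.4%) of those of 50 to 100 kb, and 66.4% (60.8 to 71.7%) of those over 100 kb. Among genes with 1500 bp or more, the share ran between 2.06% and 8.70%.

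**Figure D2:**
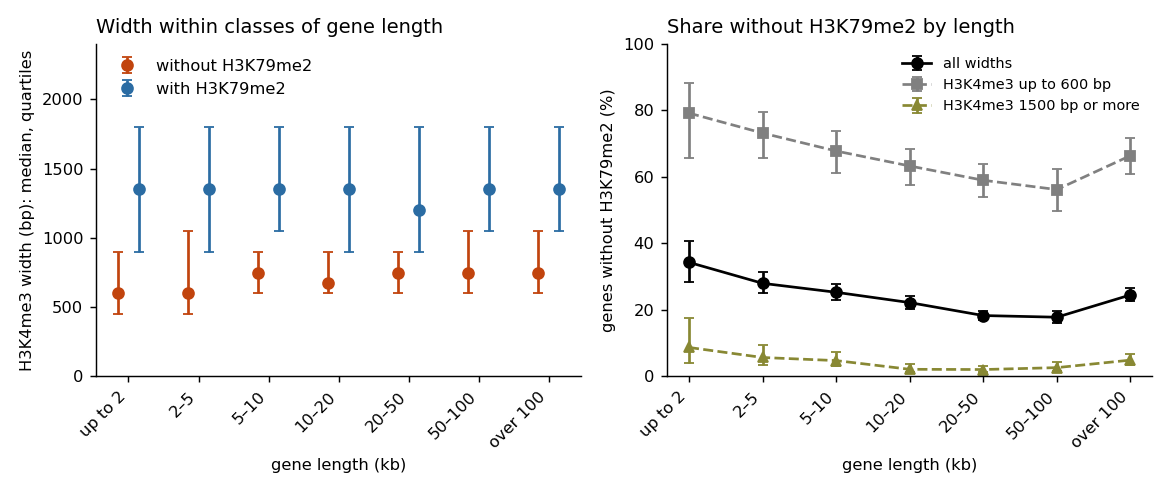
Left, the median and quartiles of H3K4me3 width (bp) by gene length (kb) for genes without and genes with H3K79me2; the medians without it are 600 to 750 bp in all 7 classes and those with it 1200 to 1350 bp. Right, the share of genes without H3K79me2 (%, Wilson 95% intervals) by gene length for all genes, for H3K4me3 up to 600 bp and for 1500 bp or more; it is lowest at 20 to 100 kb over all widths.

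The longest genes without H3K79me2 were mostly under H3K27me3. DAB1, an adaptor of reelin signalling in migrating neurons, spans 1551949 bp and had 750 bp of H3K4me3, with H3K27me3 over 70.2% of its span. LRMDA, a melanocyte gene, had 600 bp and 72.5%. SOX5, a developmental transcription factor gene, and CTNND2, a neuronal catenin gene, each had 300 bp of H3K4me3, with 47.4% of the SOX5 span and 59.6% of the CTNND2 span under H3K27me3. IMMP2L, a mitochondrial peptidase gene, differed from the other 9 of the 10 longest in having no H3K27me3. At the other extreme, genes with H3K79me2 over long stretches included ETV6 and RUNX1, transcription factor genes of blood development, with 177750 bp over 72.3% and 167100 bp over 63.9% of their spans.

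Where the strand was known, H3K4me3 lay at the annotated start in nearly all genes of both sides. This was so for 1689 of 1758 genes without H3K79me2, or 96.1% (95.1 to 96.9%), and for 6661 of 6742 genes with it, or 98.8% (98.5 to 99.0%). The region without H3K79me2 stopped sooner inside the gene. Where the widest region covered the start, it reached a median of 631 bp downstream (quartiles 481 and 801.5 bp, n = 795), against 1049 bp (quartiles 814 and 1409 bp, n = 4345) in genes with H3K79me2. Upstream, the medians were 131 bp and 149 bp. Genes with H3K4me3 at the annotated end but not at the start were few, 150 in all, and 46.0% (38.2 to 54.0%) of them lacked H3K79me2.

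Averaged around the start, H3K4me3 was highest at the same place on both sides, at lower cover without H3K79me2. H3K4me3 covered at most 75.4% of the bases in a 250 bp bin, between 250 and 500 bp downstream, in the 1689 genes without H3K79me2, against 89.5% in the same bin in the 6661 genes with it. At 2 kb downstream the cover was 0.821% without and 11.8% with H3K79me2. Over the first 250 bp, H3K4me2 covered 82.7% of the bases in genes without H3K79me2 and 56.2% in genes with it, where it dipped between shoulders on both sides of the start. In genes with H3K79me2, that mark itself rose past the start to 73.8% at 1250 bp and stood at 21.5% near 10 kb.

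**Figure D3:**
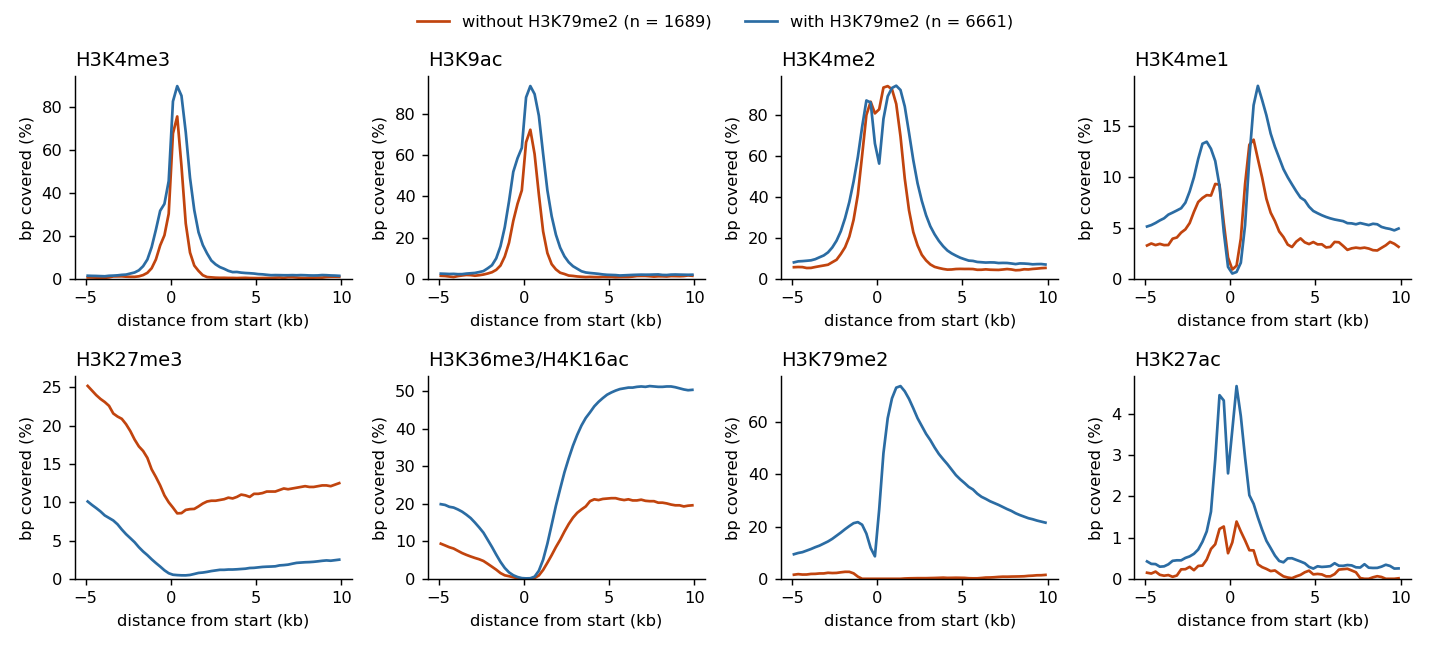
Share of bases covered by each mark (%) in 250 bp bins from 5 kb before to 10 kb after the annotated start, for 1689 genes without and 6661 genes with H3K79me2 that have H3K4me3 at the start; vertical scales differ. H3K4me3 peaks at 75.4% without and 89.5% with H3K79me2, while H3K27me3 is higher without H3K79me2 in every bin drawn.

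Most genes without H3K79me2 were far from any. The nearest H3K79me2 region lay a median of 34692 bp from the span (quartiles 12100 and 96212 bp), more than 10 kb away for 78.0% of the genes and more than 100 kb away for 24.3%. Near the rule's edge, 148 genes, or 6.62%, had H3K79me2 between 1 and 2 kb from the span. EBAG9UORF was the nearest outside at 1001 bp, followed by UBTD1 at 1024 bp and SYTL3 at 1036 bp. Just inside the edge, GTF2H5 had 1 bp of H3K79me2, ERBB3 5 bp and ZNF76 18 bp in the 1 kb margins. Of the genes with H3K79me2, 260 (3.24%) had at most 300 bp of it, and 426 (5.31%) had it in the margins only. The median over all 8019 was 3600 bp (quartiles 1548 and 8700 bp).

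Neighbours share chromatin at such short distances. The widest H3K4me3 region also lay at an end of another gene that had H3K79me2 for 205 of the genes without it, or 9.18% (8.05 to 10.4%), against 31.6% (30.6 to 32.6%) of the genes with it. Where a gene on the other strand started within 1 kb of the start, 14.3% (12.8 to 16%) of 1914 genes lacked H3K79me2, against 22.5% (21.5 to 23.6%) of 6586 genes without such a partner. By the rule, H3K79me2 of a neighbour that falls within the 1 kb margin counts for the gene itself. Both contrasts can therefore follow in part from the rule, and how much of them does was not tested. Median H3K4me3 width was 900 bp without and 1500 bp with H3K79me2 in genes that had such a partner, and 750 bp and 1200 bp in those that had none. With no other protein-coding gene within 5 kb, 858 of 3650 genes, or 23.5% (22.2 to 24.9%), lacked H3K79me2, and the medians of width were 750 and 1350 bp as over all genes.

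H3K4me2 was present over the span plus 1 kb of 99.9% of genes without and 100.0% with H3K79me2 (100.0% over all H3K4me3 genes). H3K9ac, an acetylation of active promoters, was present at 91.9% (90.7 to 93.0%) of genes without and 99.8% (99.6 to 99.8%) with H3K79me2 (98.0% over all). The gap was concentrated in narrow promoters. At H3K4me3 widths of 300 and 450 bp, H3K9ac was found at 81.8% without and 95.8% with H3K79me2, and at 1050 to 1350 bp at 96.9% and 99.9%. At an end, 97.7% of all H3K4me3 genes had H3K9ac. Of the 238 with none there, 203 lacked H3K79me2, or 85.3% (80.2 to 89.2%). H3K4me1, a mark of enhancers and promoter flanks, was present over 58.3% of spans without and 72.0% with H3K79me2 (69.0% over all), while at the ends the shares were 30.9% (29 to 32.9%) and 32.2% (31.1 to 33.2%), with 31.9% over all and overlapping intervals.

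In percentage points over the span, H3K36me3/H4K16ac differed most of the other marks. It was found over 53.4% (51.3 to 55.5%) of spans without H3K79me2 and 90.6% (89.9 to 91.2%) with it (82.5% over all). It covered at least 50% of the span in 337 genes without H3K79me2, or 15.1% (13.7 to 16.6%), against 56.0% (54.9 to 57.1%) of genes with it. The difference was present in each width class, from 39.5% against 87.4% at 300 and 450 bp to 56.8% against 91.5% at 1500 bp or more. Seen from the other side, 57.9% (55.6 to 60.2%) of the 1798 genes with no H3K36me3/H4K16ac lacked H3K79me2, against 14.1% (13.4 to 14.9%) of the 8455 genes with it.

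The 337 genes without H3K79me2 whose body was nonetheless at least 50% under H3K36me3/H4K16ac had a median length of 17065 bp and a median H3K4me3 width of 750 bp. These examples were chosen after their values were seen, as the genes with the highest cover. TMEM209, a nuclear envelope protein gene, had 97.8% of its span covered, 900 bp of H3K4me3 and no H3K79me2 within 64763 bp. GTF3C3, the gene of a subunit of the RNA polymerase III factor TFIIIC, had 95.4% covered, with the nearest H3K79me2 118885 bp away. POLB, the base excision repair polymerase gene, had 95.5% covered and the zinc finger gene ZNF283 97.2%. CSTF2, a subunit of the cleavage stimulation factor, had 94.7%, with no H3K79me2 within 208081 bp.

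H3K27me3 went the other way. It lay over 28.9% (27.1 to 30.8%) of spans without H3K79me2 and 9.40% (8.78 to 10.1%) with it (13.7% over all), and within 1 kb of the ends of 24.0% (22.3 to 25.8%) and 6.06% (5.56 to 6.60%), with 9.97% over all. Under the widest H3K4me3 region itself, the shares were 10.7% (9.53 to 12.1%) and 0.898% (0.714 to 1.13%). Of the 1022 genes with H3K27me3 at an end, 52.4% (49.4 to 55.5%) lacked H3K79me2, against 18.4% (17.6 to 19.2%) of the 9231 genes with none there. In genes over 100 kb, H3K27me3 was found over 60.5% (55.8 to 65.0%) without and 18.1% (16.1 to 20.3%) with H3K79me2. At each H3K4me3 width the share was higher without H3K79me2, at 37.6% against 20% for 300 and 450 bp and 26.3% against 6.21% for 1500 bp or more.

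Both body marks together sorted the genes without H3K79me2 into 4 sets. H3K36me3/H4K16ac alone was found in 946 genes (42.3%), H3K27me3 alone in 399 (17.9%), both in 247 (11.1%) and neither in 642 (28.7%). The same sets held 82.8%, 1.63%, 7.77% and 7.81% of genes with H3K79me2. Median gene length without H3K79me2 was 70340 bp with H3K27me3 alone and 10890.5 bp with neither mark, and H3K4me3 width was 600 bp in both of these sets, against 750 bp with H3K36me3/H4K16ac alone.

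Genes without H3K79me2 that had H3K27me3 at an end and wide H3K4me3 differed in how much of the gene H3K27me3 covered. NEO1, a netrin and repulsive guidance receptor gene, had 1800 bp of H3K4me3 and 93.7% of its span under H3K27me3. Like TLN2, NEO1 lies in the part of chromosome 15 that KBM-7 carries in an extra copy. TRIB1, a pseudokinase gene, had 1950 bp of H3K4me3 and 29.9% of its span under H3K27me3. NKX6-1, a homeobox factor gene of the pancreas and spinal cord, had 1800 bp of H3K4me3 and only 292 bp of H3K27me3, in the margin.

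H3K27ac was sparse on both sides. It was found over 4.88% (4.06 to 5.85%) of spans without and 18.1% (17.3 to 19%) with H3K79me2 (15.2% over all), and at the ends of 3.72% (3.01 to 4.58%) and 13.6% (12.8 to 14.3%), with 11.4% over all. The difference kept its direction in the 6 width classes, from 4.99% against 19.1% at 300 and 450 bp to 8.47% against 24.4% at 1500 bp or more. It turned round in the shortest genes: up to 2 kb, 22 of 74 genes without H3K79me2 had H3K27ac, or 29.7% (20.5 to 40.9%), against 27 of 142 with it, or 19% (13.4 to 26.3%), with overlapping intervals. Histone genes made up most of the 22. Without them the shares were 7.27% and 16.2%.

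**Figure D4:**
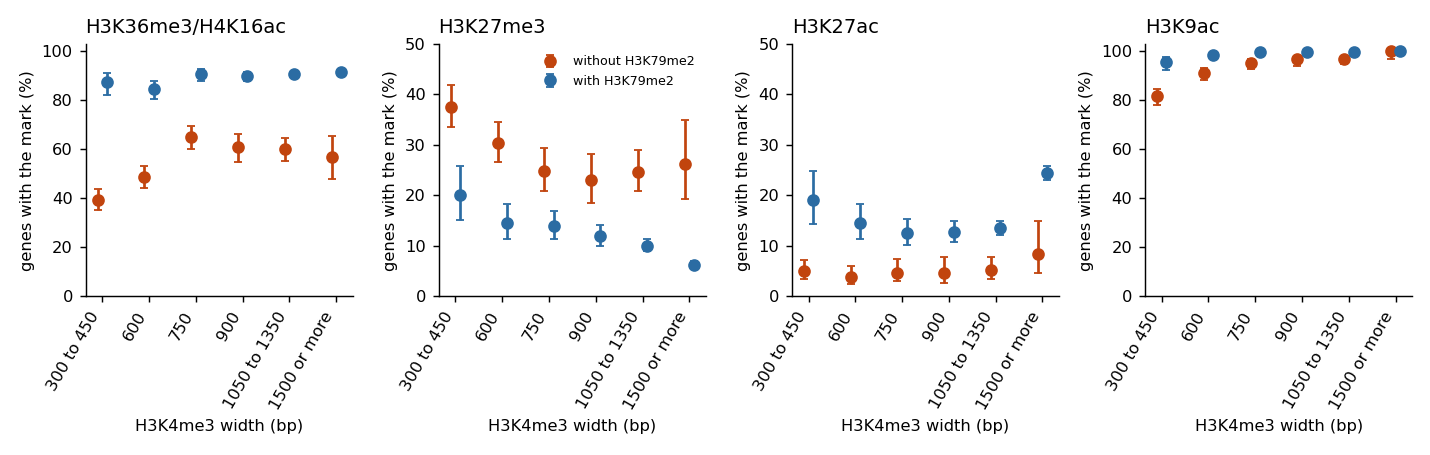
Share of genes (%) with each mark over the span plus 1 kb, by H3K4me3 width (bp), for genes without and genes with H3K79me2, with Wilson 95% intervals; vertical scales differ. Without H3K79me2 the share is lower for H3K36me3/H4K16ac and H3K27ac and higher for H3K27me3 in all 6 width classes.

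Replication-dependent histone genes are short, intronless and transcribed in bursts during S phase, and many of them lacked H3K79me2. Of 43 histone genes with H3K4me3, 19 had none, or 44.2% (30.4 to 58.9%), against 21.8% over all H3K4me3 genes. The 43 also include variant genes such as H3-3A and H2AZ1, so this is not the share of replication-dependent genes alone. All 19 were at most 2 kb long, 17 lay in the clusters of chromosome 6 and 2 on chromosome 1, and they rested on 16 H3K4me3 regions. H3K27ac was found at 18 of the 19, or 94.7% (75.4 to 99.1%), against 12 of the 24 histone genes with H3K79me2, with a Wilson 95% interval of 31.4 to 68.6%. This contrast was not seen within chromosome 6. There all 9 histone genes with H3K79me2 had H3K27ac, as did all but H3C10 of the 17 without it. None of the 19 had H3K36me3/H4K16ac or H3K27me3, and all had H3K9ac.

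The median H3K4me3 width of the 19 was 750 bp, and 7 of them shared their widest region with a gene that had H3K79me2. H2AC15 had the widest, at 1500 bp. That region lay in the margin beside the gene and was shared with H2BC15, which had 410 bp of H3K79me2. H3K27ac covered 2196 bp of the H2AC15 span and margins, and H3K9ac all 2496 bp of them. H2AC20 and H2AC21, which converge on chromosome 1, shared a region of 1050 bp with H2BC21, which had 742 bp of H3K79me2 and so lay on the other side. The histone genes with H3K79me2 included the variants with introns H3-3A, with 8700 bp of H3K79me2, H3-3B with 2700 bp, H2AZ1 with 2700 bp and H2AZ2 with 11250 bp.

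In most lists of the basic machinery of gene expression, the share without H3K79me2 lay below the 21.8% over all H3K4me3 genes. None of the 29 RNA polymerase subunit genes with H3K4me3, none of 43 splicing factor genes and none of 29 nucleoporin genes lacked it, so the upper limits of the intervals were 11.7%, 8.20% and 11.7%. Of 81 cytosolic ribosomal protein genes 1 lacked it (1.23%, 0.218 to 6.67%), of 48 translation initiation factor genes 2 (4.17%, 1.15 to 14.0%), and of 29 Mediator genes 1 (3.45%, 0.611 to 17.2%). Of 37 transcription elongation genes 3 lacked it (8.11%, 2.80 to 21.3%). These were NELFE, with 1050 bp of H3K4me3 and 78.6% of its span under H3K36me3/H4K16ac, and the ELL family genes ELL2 and ELL3, each with 600 bp of H3K4me3. Of 34 general transcription factor and TAF genes 5 lacked H3K79me2 (14.7%, 6.45 to 30.1%), an interval that includes 21.8%. TAF1A, a subunit of the RNA polymerase I selectivity factor, was among them, with 79.5% of its span under H3K36me3/H4K16ac.

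Some genes without H3K79me2 have a more widely expressed copy that had the mark. The 5 pairs given here were picked after their values were seen, from no fixed list of gene copies, and carry no count over all such pairs. RPL3L, the muscle form of RPL3, had 450 bp of H3K4me3 and no H3K79me2, against 2400 bp and 3900 bp at RPL3. The H3K4me3 region counted for RPL3L lay outside its span and also at an end of another gene. EIF4E1B, the germline relative of the cap-binding factor, had 74.1% of its span under H3K27me3 and no H3K4me3 at its start. Its 600 bp of H3K4me3 lay past its annotated end and also at an end of another gene. EIF4E had 900 bp of H3K4me3 and 33450 bp of H3K79me2. EIF5A2 had 450 bp of H3K4me3 and no H3K79me2, against 1200 bp and 4500 bp at EIF5A. MED12L had 1950 bp of H3K4me3 and no H3K79me2, against 1200 bp and 1650 bp at MED12, so that the copy without H3K79me2 was the wider here. ENO2, the neuronal enolase gene, had 300 bp of H3K4me3 and no H3K79me2, against 4800 bp and 13050 bp at ENO1.

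Lists of energy metabolism and protein turnover were mixed, with intervals below 21.8% for some and around it for others. No H3K4me3 gene of respiratory complex I and its assembly lacked H3K79me2 (0 of 43, upper limit 8.20%), none of complexes IV and III and the ATP synthase (0 of 42, upper limit 8.38%), and none of the ubiquitin conjugating enzymes (0 of 26, upper limit 12.9%). Of 42 proteasome genes 2 lacked it (4.76%, 1.32 to 15.8%). These were PSMB9, a subunit of the interferon-induced immunoproteasome, with 1200 bp of H3K4me3, and PSMB6, the constitutive subunit that it replaces, with 750 bp, so that here both copies lacked it. For other lists of protein turnover the intervals included 21.8%, with 6 of 42 deubiquitinase genes with USP symbols (14.3%, 6.72 to 27.8%), 7 of 46 F-box genes of ubiquitin ligases (15.2%, 7.57 to 28.2%) and 6 of 32 autophagy and lysosome genes (18.8%, 8.89 to 35.3%) without H3K79me2. Of 35 tRNA synthetase genes 2 lacked it (5.71%, 1.58 to 18.6%), WARS1 with 1350 bp and the mitochondrial AARS2 with 900 bp of H3K4me3. Of 73 mitochondrial ribosomal protein genes 8 lacked it (11%, 5.66 to 20.2%). Among glycolysis and citrate cycle genes it was 3 of 37 (8.11%, 2.80 to 21.3%), namely ACO1, SUCLG2 and ENO2, in cholesterol synthesis 1 of 21 (MVK, interval 0.846 to 22.7%), and among chaperones 1 of 32 (HSPB1).

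Of 49 cell cycle and DNA replication genes 3 lacked H3K79me2 (6.12%, 2.10 to 16.5%). CCNE1, the cyclin of the entry into S phase, had 1050 bp of H3K4me3, 71.5% of its span under H3K36me3/H4K16ac and its nearest H3K79me2 95491 bp away. GINS4, a part of the replicative helicase, had 1050 bp and 88.8%. CCND2, a D-type cyclin gene, had 750 bp, with 12.7% under H3K36me3/H4K16ac and 11.1% under H3K27me3. Of 52 DNA repair genes 6 lacked it (11.5%, 5.40 to 23%). The widest were FANCC, a Fanconi anaemia gene, and PARP2, an ADP-ribosyltransferase gene, each with 1050 bp of H3K4me3, and PARP2 had 90.4% of its span under H3K36me3/H4K16ac. Of 65 chromatin modifier genes 5 lacked it (7.69%, 3.33 to 16.8%), namely RING1, KAT2B, SIRT6, KAT2A and MEN1, with 1200, 1050, 900, 750 and 600 bp of H3K4me3.

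For both lists of blood cell identity genes the interval of the share without H3K79me2 included the 21.8% over all H3K4me3 genes. Of 26 haematopoietic transcription factor genes 2 lacked it (7.69%, 2.14 to 24.1%). MECOM, a stem cell and leukaemia factor gene, had 600 bp of H3K4me3 and 75.3% of its span under H3K27me3. SPIB, a B cell factor gene, had 600 bp and neither body mark. The SPIB region lay past its annotated end and also at an end of another gene, with no H3K4me3 at the SPIB start. GATA2, in contrast, had 7950 bp of H3K4me3 and H3K79me2 over 97.8% of its span. Of 24 haematopoietic signalling and surface genes 3 lacked it (12.5%, 4.34 to 31.0%), among them IL3RA, a cytokine receptor gene, and CD37, a tetraspanin gene, with 450 and 300 bp of H3K4me3. Of 38 genes of BCR-ABL1 and JAK-STAT signalling 1 lacked it (2.63%, 0.466 to 13.5%). That was MAPK3, which encodes the kinase ERK1, with 1350 bp of H3K4me3 and its nearest H3K79me2 18255 bp away. The STAT5 target genes SOCS2 and CISH had 7950 bp and 6900 bp of H3K4me3 and 23832 bp and 7136 bp of H3K79me2.

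Signal-induced genes lay on both sides. Of 27 immediate early genes 9 lacked H3K79me2 (33.3%, 18.6 to 52.2%, which includes 21.8%), with a median H3K4me3 width of 600 bp, against 1725 bp in the other 18. EGR1 had 1200 bp of H3K4me3, 1272 bp of H3K9ac, no H3K36me3/H4K16ac and no H3K27me3, and its nearest H3K79me2 was 50898 bp away. FOS had 450 bp of H3K4me3 and 1473 bp of H3K9ac, and likewise neither body mark. IER3 had 600 bp of H3K4me3, with 74.1% of its span under H3K27me3. The H3K4me3 region counted for IER3 lay outside its span and also at an end of another gene. H3K27me3 was found at 5 of these 9 genes, against 28.9% of all genes without H3K79me2, and at none of the 18 with H3K79me2, against 9.40% of all genes with it. Of the 18, JUN had 1350 bp of H3K4me3 and 450 bp of H3K79me2. Of 19 interleukin and interleukin receptor genes 9 lacked H3K79me2 (47.4%, 27.3 to 68.3%), among them IL17RA, a receptor of the interleukin 17 family. All 3 chemokine genes with H3K4me3, CXCL2, CXCL16 and CXCL3, lacked it. Of 22 interferon response and antigen presentation genes 6 did (27.3%, 13.2 to 48.2%).

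Several lists of membrane and developmental genes had shares without H3K79me2 above that of all H3K4me3 genes. The share was 60% (35.7 to 80.2%) of 15 potassium channel genes, 50% (26.8 to 73.2%) of 14 genes of a list of developmental factors, among them the SOX, PAX, LHX and TBX families, 31.7% (24.5 to 39.8%) of 139 genes with TMEM symbols, which encode transmembrane proteins of varied function, and 30.1% (23.7 to 37.3%) of 173 solute carrier genes. The intervals of these 4 lists lay above 21.8%. Other developmental factor lists did not share this, with 3 of 16 forkhead genes (18.8%, 6.59 to 43.0%) and 1 of 9 HOX genes (11.1%, 1.99 to 43.5%) without H3K79me2. KCNJ4, an inward rectifier, had the widest H3K4me3 of the 9 potassium channel genes at 1200 bp. Of the developmental factors, TBX3 had 1350 bp of H3K4me3 and its nearest H3K79me2 704905 bp away. SLC4A11, an ion transporter gene of the cornea, had the widest H3K4me3 of the 52 solute carrier genes at 2100 bp. Both protocadherin genes with H3K4me3 lacked H3K79me2, as did 2 of 3 neuronal genes, ENO2 and TUBB3.

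For other large families the intervals included 21.8%. Of 318 C2H2 zinc finger genes with ZNF symbols 83 lacked H3K79me2 (26.1%, 21.6 to 31.2%). Their median H3K4me3 width was 600 bp, against 1050 bp for the 235 with it. H3K36me3/H4K16ac was found at 71 of the 83 and 229 of the 235, against 53.4% of all genes without and 90.6% with H3K79me2. H3K27me3 was found at 48 and 123 of them, against 28.9% and 9.40% of all genes. This family thus carried both body marks on both sides of the split. Of 45 Rab GTPase genes 14 lacked H3K79me2 (31.1%, 19.5 to 45.7%), and of 35 tripartite motif genes 10 (28.6%, 16.3 to 45.1%). In 36 of the 37 lists with genes on both sides, the median H3K4me3 width was narrower without H3K79me2; the exception was Mediator, with MED12L alone on that side.

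**Figure D5:**
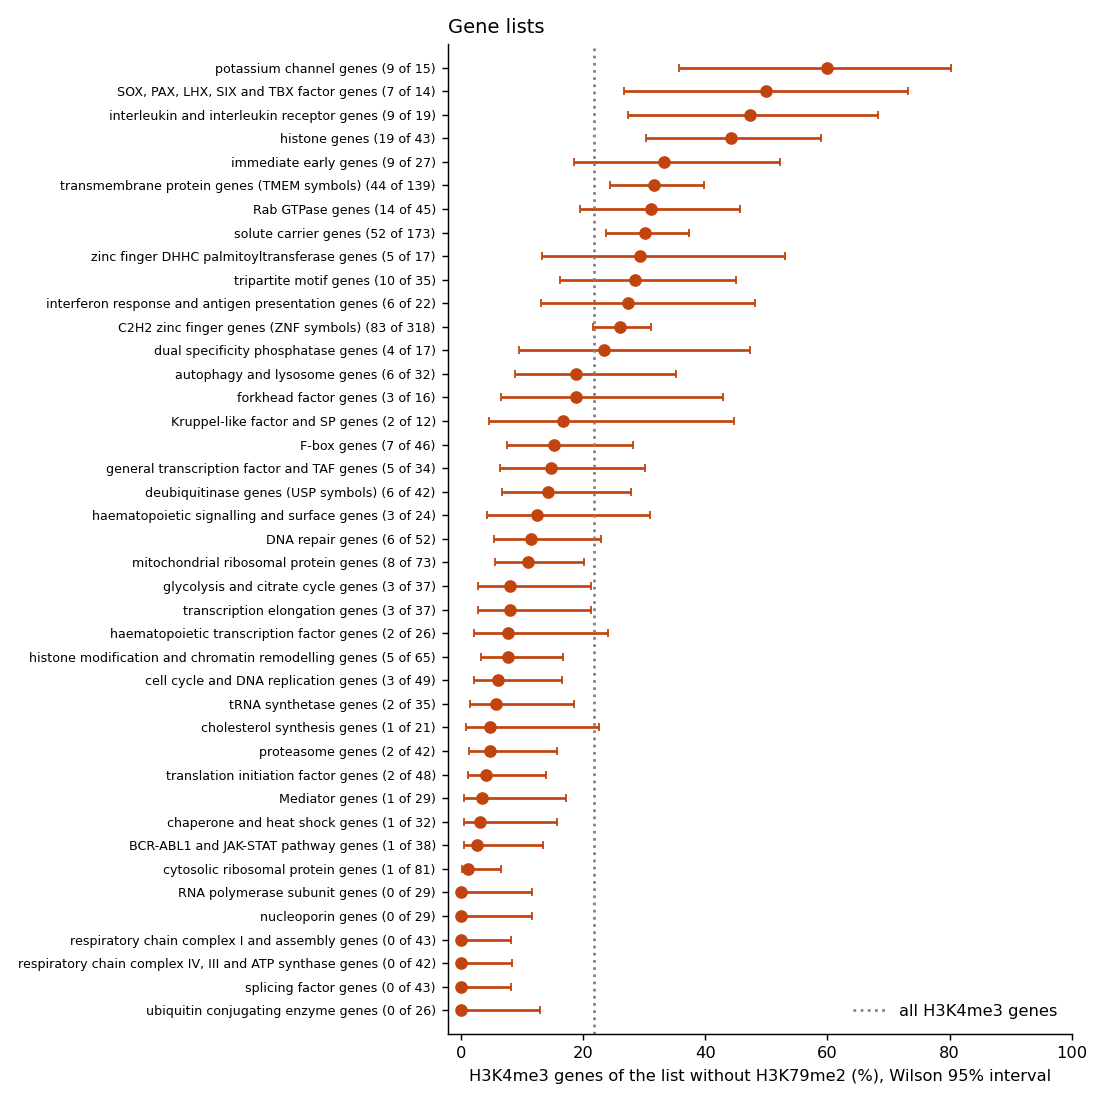
Share of H3K4me3 genes without H3K79me2 (%) in each gene list with at least 10 H3K4me3 genes, with Wilson 95% intervals and the counts beside the names; the dotted line is the 21.8% over all H3K4me3 genes. Over all 45 lists, 8 intervals lie above 21.8% and 18 below it.

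The promoter sequence of both sides was alike in base composition and differed in some motifs. Over the 300 bases, the median G+C content was 67.0% in 1758 promoters without H3K79me2 and 65.7% in 6742 with it, against 62.7% in all 15812 protein-coding promoters of the table. The median number of CpG was 27 on both sides, against 22 over all promoters. The share of H3K4me3 genes without H3K79me2 followed no steady trend with CpG. It was 26.4% (22.8 to 30.3%) for promoters with under 10 CpG, 23% (20.9 to 25.2%) with 10 to 19, 18.4% (17.0 to 19.8%) with 20 to 29, 21.5% (19.9 to 23.2%) with 30 to 39 and 19.4% (17.2 to 21.7%) with 40 or more.

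The ETS core CCGGAAG was found in 14.8% (13.2 to 16.5%) of promoters without H3K79me2 and 23.8% (22.8 to 24.8%) with it, against 14.1% of all promoters of the same length. The YY1 letters AAGATGGCG were found in 2.22% (1.63 to 3.02%) and 5.22% (4.72 to 5.78%), against 2.69% of all. GCATGCG, of the NRF1 motif, was found in 5.57% (4.60 to 6.75%) and 7.46% (6.86 to 8.11%), against 5.15%, and the E box CACGTG in 8.65% (7.42 to 10.1%) and 11.1% (10.4 to 11.9%), against 8.82%. The intervals of both sides did not overlap for any of these 4 over all promoters. In promoters that H3K4me3 itself overlapped, they did overlap for the NRF1 letters, at 6.10% (4.80 to 7.71%) without and 7.60% (6.91 to 8.37%) with H3K79me2, and for the E box, at 9.24% (7.63 to 11.1%) and 10.7% (9.90 to 11.6%). The GC box GGGCGG was found in 74.4% and 73.4% (58.3% of all), TATAAA in 5.29% and 4.87% (9.75% of all), CCAAT in 35.2% and 38.0% (36.4% of all) and the CRE letters TGACGTCA in 3.30% and 3.63% (2.56% of all), with overlapping intervals for all 4. A match is a description of the letters on either strand and not evidence of binding. None of these motifs contains another.

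The ETS difference was also present at a given H3K4me3 width. Without minus with H3K79me2 it was -6.10 percentage points for widths up to 600 bp, -10.1 for 750 and 900 bp, and -8.00 for 1050 bp or more. For the YY1 letters it was -1.35, -3.12 and -2.21 in the same classes, for the NRF1 letters -3.70, -2.17 and -1.98, and for the E box -4.22, -0.10 and -2.74. Within these classes the intervals of both sides overlapped throughout for the NRF1 letters and the E box. For the YY1 letters they overlapped except at 750 and 900 bp, and for the ETS core they did not overlap in any class. In promoters that H3K4me3 itself overlapped, 18.5% (16.2 to 20.9%) without and 26.0% (24.9 to 27.3%) with H3K79me2 held the ETS core. In the printed set, NELFE was the promoter with an ETS core.

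By chromosome the share of H3K4me3 genes without H3K79me2 ran from 14.9% (9.95 to 21.7%) on chromosome 18 to 27.3% (23.8 to 31.2%) on chromosome 6, which holds the histone clusters. H3K4me3 was wider on chromosome 8 than elsewhere, with medians of 1050 bp without and 2400 bp with H3K79me2, against 600 to 900 bp and 1050 to 1650 bp on the other chromosomes. KBM-7 is known to carry an extra copy of chromosome 8 and of a piece of chromosome 15, and what that contributes to the widths was not tested. The share without H3K79me2 on chromosome 8, 20.1% (16.4 to 24.4%), included the 21.8% over all.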

How the data were processed

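The authors deposited 1 list of called intervals for KBM-7 chromatin with positions and a mark name, and no other measure; this is positional data in a unit other than counts or signal. Per the submitters' processing notes, cutadapt, Bowtie2, MACS and GRCh38 were used, with versions, thresholds and the inputs paired with each call not given in the sources used here. Depth is unknown, and 3 input libraries were not used. H3K27me3 starts counted from 0 and the others from 1, so all were brought to 1 convention. H3K36me3 and H4K16ac held 45639 identical intervals and were used as 1 set. Intervals named H3K9me3 matched no sample and were not used.

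Overlapping or adjacent intervals were joined with Python 3.11.15, numpy 2.4.6 and pandas 2.3.3. Gene spans were taken from RefSeq's annotation of that build. Strand and promoter sequences came from RefSeq's GRCh38.p14 promoter table, for 15812 of 19974 genes and 8500 of 10253 genes with H3K4me3; none of chromosome 8 was printed. Overlaps needed 1 bp. Wilson intervals at 95% were used, and no test was run, since each mark has 1 library. The overlap and split steps were tested on simulated data.

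The genes described, the 45 gene lists and the comparisons were chosen with earlier results of these data known; 631 of 632 list entries matched. Named genes were the widest, longest, shortest and nearest to the rule's edge, and per list up to 4 without H3K79me2 with the widest H3K4me3, or all where 4 or fewer; some genes that this rule names are not reported here. Others, among them FOS, JUN, GATA2, SOCS2, CISH, MEN1, RUNX1, the common gene copies and the histone genes with H3K79me2, were chosen after their values were seen. Alternatives changed windows, margins, region sets, joining, gene sets, ends and chromosomes.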

Additional observations from a re-analysis of the deposited data

How the results depend on the processing

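Genes without H3K79me2 had the narrower H3K4me3 under all alternatives. Their share of 21.8% became 23.5% with a window of 2.5 kb, 25.9% with no margin, 18.8% with a margin of 5 kb, 26.8% when at least 500 bp of H3K79me2 were asked for, 32.1% when H3K79me2 was sought within 1 kb of the ends, 10.7% (818 genes) with the wider H3K4me3 regions, 31.9% with the wider H3K79me2 regions, 23.5% (858 genes) with no other gene within 5 kb, 21.0% for genes of at least 5 kb, 23.3% for regions at no other gene and 20.2% at annotated starts. The width difference of -600 bp became -300 bp with the wider H3K4me3 regions, -750 bp with gaps up to 500 bp joined, -900 bp as bp covered within 5 kb, and -450 bp with intervals as deposited, for regions at no other gene, at annotated starts and without chromosome 8 and part of chromosome 15. By gene length it was -750 bp up to 2 kb and at 2 to 5 kb, -675 bp at 10 to 20 kb and -450 bp at 20 to 50 kb. The length ratio of 0.836 turned to 1.16 with H3K79me2 sought at the ends, and was 0.933 with the wider H3K4me3 regions and 0.964 with no other gene within 5 kb. The H3K27ac difference in genes up to 2 kb reversed to -8.93 percentage points without histone genes, an alternative added after seeing the data, as were the motif comparisons within classes of H3K4me3 width; no other result reversed. The causes were not tested beyond what each alternative changes by construction. No paired analysis was possible because each mark has 1 library and the labels give no replicate numbers. Depth is unknown, so a weak mark cannot be told from an absent one.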

Other observations

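Grouping the H3K4me3 genes by the letters their symbols begin with, which was done after the data were seen, gave 72 groups with at least 15 genes. Of 16 IFT genes, which encode the intraflagellar transport machinery, 10 had no H3K79me2 (62.5%, Wilson 95% interval 38.6 to 81.5%), as did 10 of 19 CFAP genes, named for cilia and flagella (52.6%, 31.7 to 72.7%), against 21.8% over all H3K4me3 genes. GPR genes, which encode orphan and other G protein-coupled receptors, had 10 of 19 without H3K79me2 (52.6%), genes with symbols in SH 10 of 20 (50%, 29.9 to 70.1%), IL genes 9 of 19 (47.4%), MYO genes of myosins 7 of 15 (46.7%, 24.8 to 69.9%), genes whose symbols begin with H alone, most of them histone genes, 20 of 43 (46.5%, 32.5 to 61.1%) and CCDC genes, named for coiled-coil domains, 30 of 70 (42.9%, 31.9 to 54.5%).

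At the other end, 7 groups had no gene without H3K79me2. These were COX (17 genes), DDX (31 genes, RNA helicases), METTL (20 genes, methyltransferases), NUP (22 genes), POLR (29 genes), TIMM (15 genes, mitochondrial import) and UBE (32 genes). With groups picked as the extremes of 72, these shares are a description and carry no test.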
